A study of Mus musculus with 6 samples.

Results

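The genes described here encode the proteins of the cytosolic ribosome and their close paralogs, measured in the lungs of Col6a1-/- and wildtype mice. They were taken from the deposited table of normalized counts as the rows whose symbol is Rpl or Rps followed by a number with an optional letter and digit, by a (Rpsa) or by p0, p1 or p2 (the stalk proteins), without the pseudogene suffix -ps. Of 88 such rows, 84 had 10 or more normalized counts in no fewer than 3 of the 6 libraries, out of 49568 rows in the table and 16879 that passed the same minimum. Symbols of the large subunit (Rpl) made up 50 of the 84 and symbols of the small subunit (Rps) 34. The members were thus chosen by symbol and selected on their level, and the family itself was taken up with earlier results of these data known.

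Whole lung was perfused and the right lobes were used for RNA. The animals were 6 weeks old and of strain C57BL/6 in both groups, which differed in genotype, Col6a1-/- against wildtype. Each of the 6 libraries, 3 per genotype, came from RNA pooled from 2 animals, so that 6 animals stood behind each genotype. Values of single pools are listed in the order of replicates 1, 2 and 3 throughout. The labels give neither sex nor the allele that disrupts Col6a1. Because each library holds all cell types of the lung, fewer cells of a type and less RNA per cell cannot be told apart.

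A ribosome carries 1 copy of nearly all of these proteins, on the scaffold of the ribosomal RNAs. The small subunit decodes the messenger RNA and the large subunit joins the amino acids, while the acidic stalk proteins recruit the elongation factors. Transcripts of ribosomal proteins are among the most abundant in a cell. They start with a stretch of pyrimidines, the 5′ terminal oligopyrimidine (TOP) motif, through which mTOR signalling and the binding protein Larp1 control their translation and stability as a group. A few members have paralogs, such as Rpl22l1 for Rpl22, that can take the same place in the ribosome or have roles outside it.

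Start sites are shown first, because the pyrimidine stretch is the sequence that sets these transcripts apart as a group. Promoter sequences from RefSeq (GRCm38.p6) were found for 61 of the 84 members. Each line gives the 15 bases before and the 15 bases from the annotated start, on the transcribed strand, with the longest unbroken run of C and T in capitals. The first 5 genes are those with an adjusted p under 0.05 in the authors' deposited table, the last 4 are among the 6 members with the lowest estimates, and Rpl22 is the partner of Rpl22l1.
Rpl22l1 (chr3:28805493-28805522, plus strand): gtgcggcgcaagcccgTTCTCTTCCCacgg
Rpl35a (chr16:33056438-33056467, plus strand): gcggggcgtgcgTCCCacaaggccgcgcgg
Rpl39 (chrX:37085208-37085237, minus strand): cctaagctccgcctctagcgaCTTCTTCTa
Rps12 (chr10:23787195-23787224, minus strand): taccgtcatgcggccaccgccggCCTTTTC
Rps15a (chr7:118116133-118116162, minus strand): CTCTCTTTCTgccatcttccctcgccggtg
Rpl22 (chr4:152325711-152325740, plus strand): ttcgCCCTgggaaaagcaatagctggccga
Rpl28 (chr7:4792950-4792979, plus strand): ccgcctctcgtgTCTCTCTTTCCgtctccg
Rpl27 (chr11:101442230-101442259, plus strand): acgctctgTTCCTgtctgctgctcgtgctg
Rps28 (chr17:33824548-33824577, minus strand): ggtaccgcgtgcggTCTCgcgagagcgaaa
Rpl7l1 (chr17:46782642-46782671, minus strand): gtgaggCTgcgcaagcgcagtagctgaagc

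An unbroken run of at least 8 C or T within 30 bases of a start was present on the transcribed strand of 34 of the 61 members (55.7%), against 25.8% of 27025 genes with a promoter sequence. On the other strand the run was found in 8 members (13.1%) and in 28.7% of all genes. The core CCGGAA, which ETS-family factors bind, or its reverse complement stood in the promoter sequence, 250 bases before to 50 after a start, of 55.7% of the members and of 16.7% of all genes. The runs did not sort the members by their estimate: in the windows of 30 bases, the 25 members with a run of at least 8 had a median log2 fold change of 0.18, and the 36 without one also of 0.18. The RefSeq starts used can lie far from other annotated starts. For the 10 genes printed, in that order, the nearest principal GENCODE transcript began 72, 0, 180, 66, 41, 127, 25, 53, 0 and 0 bases away. For Rpl35, also among the 61, it was 493 bases. A missing run thus says only that the letters are not in the window, and the split by runs describes these windows, not the starts in use.

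Libraries held 28055414 to 37904878 reads in genes. Col6a1 stood at 19907, 18393 and 22331 normalized counts in the wildtype pools and at 10034, 10616 and 9344 in the Col6a1-/- pools, a log2 fold change of -1.01 (SE 0.10, limma adjusted p 0.00643). At 49.5% of the wildtype mean, Col6a1 reads remained, and whether they lie in the disrupted part is not stated in the labels. All 12 markers of lung epithelium and endothelium passed the minimum level. The pools differed in sex: the level of 4 Y-linked genes, relative to the highest library, was 0.347%, 3.35% and 51.5% in the wildtype pools and 72.5%, 100% and 51.1% in the Col6a1-/- pools. Genotype and the sex of the pools are thus linked in part. Values with this male share as a covariate are given for the medians of the family, for Rpl22l1 and for some members with estimates near 0. For the other named genes, among them Rpl35a, Rpl39, Rps12 and Rps15a, they are not given here.

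Ribosomal protein transcripts took between 1.55% and 2.19% of the reads in genes. The share was 1.74%, 1.79% and 1.55% in the wildtype pools and 1.69%, 2.00% and 2.19% in the Col6a1-/- pools. Col6a1-/- replicates 2 and 3 lay above the wildtype pools, while Col6a1-/- replicate 1 lay within their range. The mean was 1.69% ± 0.127 in wildtype and 1.96% ± 0.255 in Col6a1-/- lungs (SD, n = 3 pools each), so that the gap was about the size of the SD in Col6a1-/- lungs. Both subunits showed the same order of libraries: large subunit transcripts took 0.980%, 1.01% and 0.871% in wildtype and 0.945%, 1.12% and 1.22% in Col6a1-/- pools, and small subunit transcripts 0.763%, 0.784% and 0.678% against 0.742%, 0.881% and 0.974%. The ratio of large to small subunit reads was nearly fixed, at 1.283, 1.282 and 1.284 in wildtype pools and 1.274, 1.273 and 1.251 in Col6a1-/- pools. This ratio did not overlap between genotypes, although its means differed by little, 1.283 ± 0.000882 against 1.266 ± 0.0126 (SD, n = 3 each).

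Within a library the members lay close together. Relative to each gene's own mean over the 6 libraries on the log2 scale, the median member stood at -0.05, -0.03 and -0.22 in the wildtype pools and at -0.13, 0.15 and 0.25 in the Col6a1-/- pools. All 84 members were above their own mean in Col6a1-/- replicate 3 and 79 in Col6a1-/- replicate 2, against 6 in Col6a1-/- replicate 1 and 1 in wildtype replicate 3. Col6a1-/- replicate 3 was the highest library for 71 members, and wildtype replicate 3 the lowest for 66. Wildtype pools differed among themselves in the same manner, since 75 members were lower in wildtype replicate 3 than in both other wildtype pools.

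**Figure D1:**
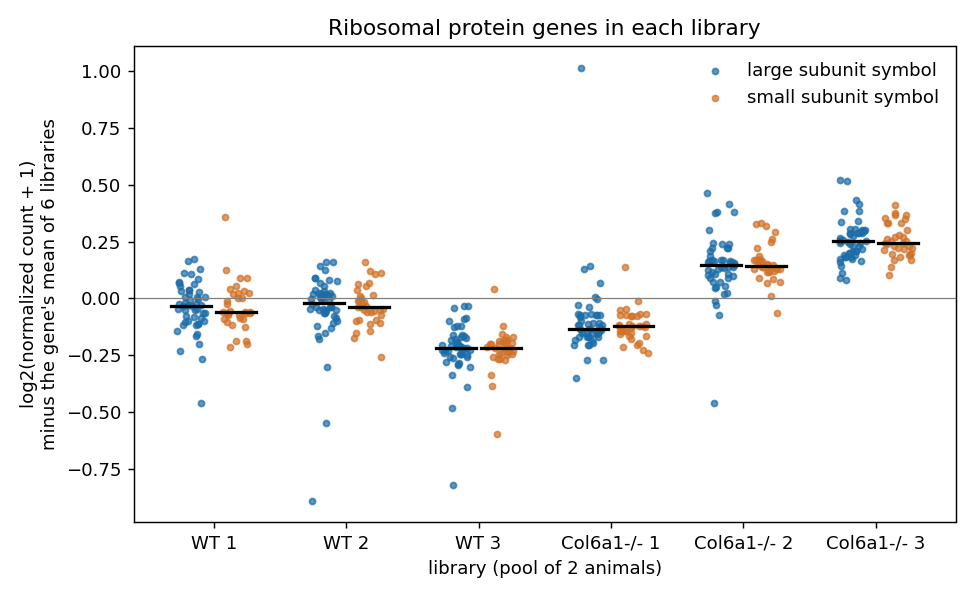
Each point is 1 of the 84 ribosomal protein genes, plotted as its log2(normalized count + 1) in a library minus its mean over the 6 libraries, with the large subunit in blue, the small subunit in orange and black lines at the medians. The members lie together in each library, lowest in wildtype replicate 3 (median -0.22) and highest in Col6a1-/- replicate 3 (median 0.25), and the widest points include Rpl24 and Rpl6l, at mean counts of 12.3 and 12.6.

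In the comparison of genotypes no member passed. With limma on log2(normalized count + 1) and Benjamini-Hochberg adjustment over all 16879 tested genes, 0 of 84 members had an adjusted p under 0.05, and 0.0652% of all tested genes did (0.0178% higher in Col6a1-/- lungs). Before adjustment, 20 members had a p under 0.05, all with higher estimates in Col6a1-/- lungs, while 20.3% of all tested genes passed at that level and 9.72% did so with higher estimates. edgeR called 0 members, where it called 0.077% of all tested genes, and had 21 members at an unadjusted p under 0.05, a level that 20.0% of all tested genes passed. DESeq2 called 5 members, all higher: Rpl22l1, Rpl35a, Rpl39, Rps12 and Rps15a, and over all genes it called 1.87% higher. The same 5 had an adjusted p under 0.05 in the authors' deposited table, where 1.87% of the genes with an adjusted p were called higher.

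Estimates pointed one way for nearly the whole family. The log2 fold change was positive for 81 of 84 members and negative for Rpl7l1, Rps4l and Rps28, with a median of 0.17 and quartiles of 0.12 and 0.26. Over all tested genes 51.7% of the estimates were positive and the median was 0.01. Large subunit members had a median of 0.16 (49 of 50 positive) and small subunit members one of 0.19 (32 of 34 positive). Over the fits that left out 1 library these medians ran from 0.085 without Col6a1-/- replicate 3 to 0.27 without Col6a1-/- replicate 1 for the large and from 0.12 to 0.28 for the small subunit. With the length and GC trend removed they were 0.111 and 0.107, in the opposite order. With that of the principal transcript removed they were 0.113 and 0.118, in the order of the main fit. The median SE of a member was 0.115. The pools of both genotypes were separate for 14 members, all higher in Col6a1-/- lungs, where 10.7% of all tested genes were higher without overlap.

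The size of the shift varied with single pools. Its median was 0.10 without Col6a1-/- replicate 3, 0.11 without wildtype replicate 3 and 0.28 without Col6a1-/- replicate 1. In a fit that included the male share the median was 0.34; that fit called 0.0% of all tested genes, so its count of 0 members says nothing about them. In the 3 pools of mixed sex the median was 0.29, with no member and 2.02% of all tested genes called. There the wildtype arm is replicate 3 alone, the lowest library for 66 members, and its spread is assumed to be that of the 2 Col6a1-/- pools. Ribosomal protein transcripts are short, with a median of 751 bases against 2651 bases for all tested genes. Other genes both short and abundant had mostly positive estimates. Among 569 of them, of 476 to 1339 bases with a mean of at least 1000, 77.0% were positive and the median was 0.13. Length and level were not told apart in this set, and their part in the members' estimates was not tested. After a smooth trend on length and GC was taken out, the members' median was 0.11 and 70 of 84 estimates were positive. Among the members themselves, Spearman's rho of the estimate was -0.19 with transcript length, -0.31 with GC content and -0.07 with the mean level (across 84 genes of the same 6 libraries, given as a description).

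**Figure D2:**
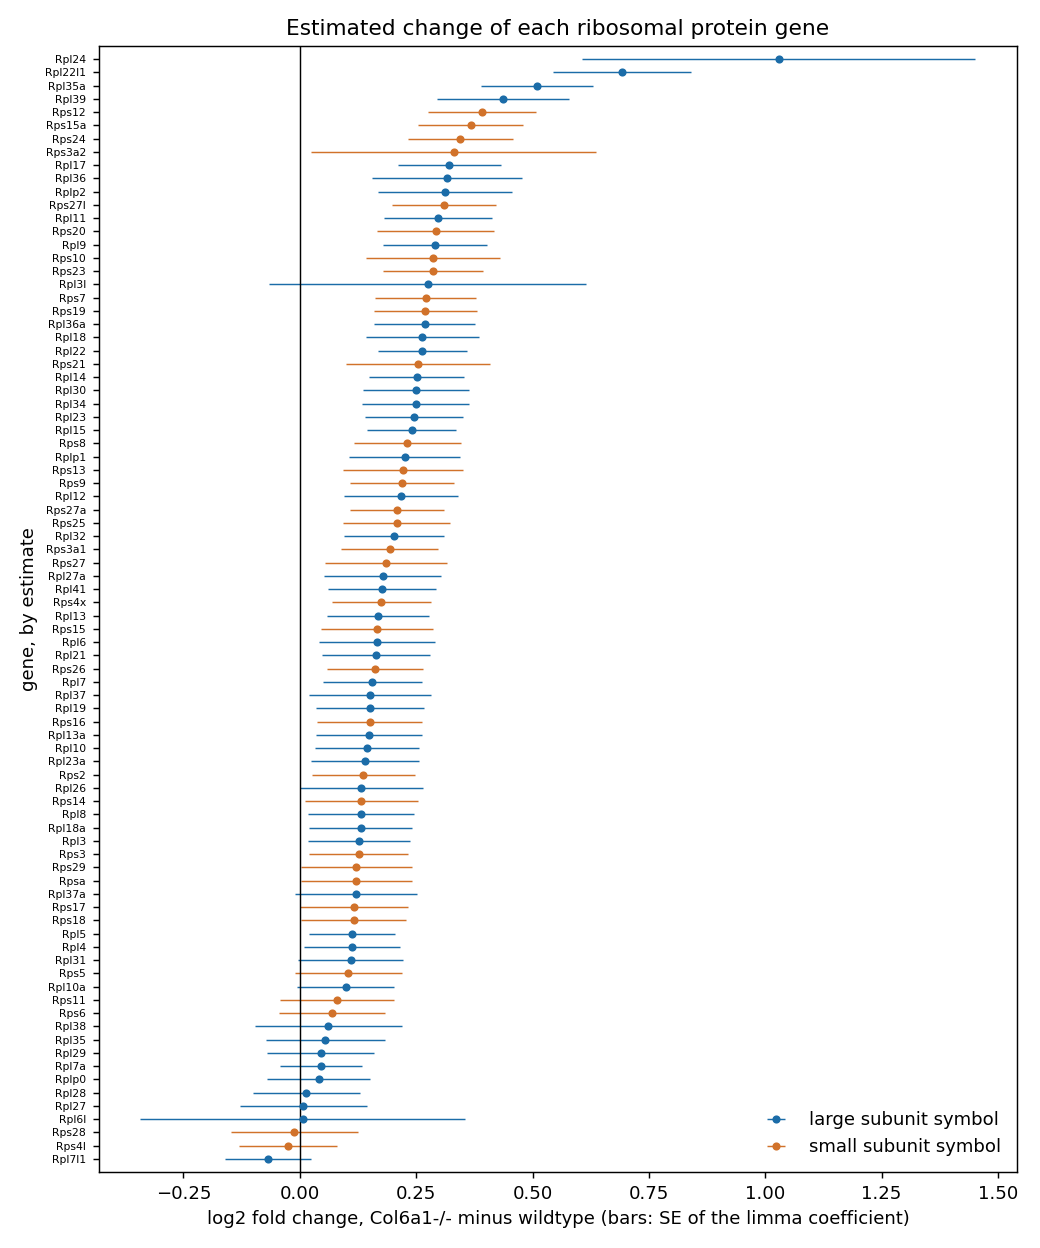
Points are the log2 fold changes of the 84 ribosomal protein genes (Col6a1-/- minus wildtype, n = 3 pools each), ordered by size, with bars for the SE of the limma coefficient. All but 3 estimates lie above 0, with quartiles of 0.12 and 0.26, and no gene had an adjusted p under 0.05.

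Rpl22l1, the paralog of the RNA-binding large subunit protein Rpl22, had the smallest adjusted p of the family. It lies on chromosome 3 at 28805436 to 28807424 on the plus strand (ENSMUSG00000039221.10, GRCm38). Its normalized counts were 562, 528 and 755 in the wildtype pools and 852, 1005 and 1104 in the Col6a1-/- pools. All 3 Col6a1-/- pools exceeded the wildtype pools, of which wildtype replicate 3, with a male share of 51.5%, was nearest. The Col6a1-/- mean was 1.605-fold the wildtype mean, 987 ± 127 against 615 ± 123 (SD, n = 3 each), and the log2 fold change was 0.69 (SE 0.15, limma adjusted p 0.0869). The log2 fold change was 0.44 with the male share as a covariate (adjusted p 0.666) and 0.36 in the mixed-sex pools, where 1 wildtype pool stands against 2 Col6a1-/- pools (adjusted p 0.329). With the trend on length and GC of the principal transcript removed it was 0.31 (adjusted p 0.217). Without wildtype replicate 3 it reached 0.85 (adjusted p 0.00747). In that fit 5.29% of all tested genes were called higher; the remaining wildtype pools then had male shares of 0.347% and 3.35%, so genotype and sex cannot be told apart there.

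Rpl35a, a large subunit protein known from Diamond-Blackfan anaemia, lies on chromosome 16 at 33056453 to 33060189 (plus strand, ENSMUSG00000060636.14). It had normalized counts of 2757, 2626 and 2759 in the wildtype pools and of 3251, 3819 and 4639 in the Col6a1-/- pools. The wildtype pools lay close together and all Col6a1-/- pools above them. The mean was 1.44-fold that of wildtype (log2 fold change 0.51, SE 0.12, limma adjusted p 0.0942). Among the limma fits that left out a library, it was called only without wildtype replicate 3 (adjusted p 0.0431). In that fit 5.29% of all tested genes were called higher. The estimate was 0.49 in the mixed-sex pools, again with 1 wildtype pool.

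Rpl39 forms part of the peptide exit tunnel of the large subunit and is X-linked (chromosome X, 37082520 to 37085402, minus strand). Its counts were 2071, 2221 and 2125 in wildtype and 2229, 3239 and 3360 in the Col6a1-/- pools, and Col6a1-/- replicate 1 was barely above the highest wildtype pool. The estimate was 0.44 on the log2 scale (SE 0.14, limma adjusted p 0.142). The other X-linked members gave 0.27 for Rpl36a, 0.18 for Rps4x and 0.14 for Rpl10, with adjusted p of 0.204, 0.37 and 0.482.

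Rps12 and Rps15a, both of the small subunit, followed. Rps12 (chromosome 10, 23785183 to 23787275, minus strand) had counts of 8369, 8570 and 8004 in wildtype and 9047, 11648 and 12289 in the Col6a1-/- pools. Rps15a (chromosome 7, 118104372 to 118116188, minus strand) had 5089, 5127 and 5078 against 5504, 6881 and 7514. Neither overlapped between genotypes, and in both the wildtype pools were close to each other while the Col6a1-/- pools spread out. Their log2 fold changes were 0.39 (SE 0.12, limma adjusted p 0.127) and 0.37 (SE 0.11, limma adjusted p 0.132).

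Members with estimates near 0 were found in both subunits. Rps28, of the small subunit head, had counts of 2481, 2548 and 1893 in wildtype and 1928, 2474 and 2448 in the Col6a1-/- pools, and the genotypes overlapped. Rpl28 had 6269.5, 5635 and 4789.5 against 5045, 5639 and 6126, and Rpl27 had 1728, 1684 and 1347 against 1310.5, 1704 and 1783. In these genes wildtype replicate 3 and Col6a1-/- replicate 1 were the 2 lowest libraries. Their log2 fold changes were -0.01, 0.01 and 0.01, with adjusted p of 0.973, 0.959 and 0.982. With the male share as a covariate they were not near 0, at 0.23 for Rps28, 0.27 for Rpl28 and 0.25 for Rpl27.

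The stalk and other functional landmarks had estimates from 0.04 to 0.31. On the log2 scale Rplp0, the stalk base, was at 0.04 (SE 0.11), and the stalk dimer proteins Rplp1 and Rplp2 were at 0.23 (SE 0.12) and 0.31 (SE 0.14), with adjusted p of 0.864, 0.315 and 0.255. Rplp2 was at 5958, 5375 and 5084 in wildtype pools and 5280, 8111 and 7275.5 in Col6a1-/- pools, and replicate 1 of Col6a1-/- again sat among the wildtype values. Rpsa, the small subunit protein also known as the laminin receptor, had 12427, 12380 and 10578 against 10844, 13799 and 13993, a log2 fold change of 0.12 with an adjusted p of 0.587. Rps6, the substrate of S6 kinase, was at 0.07, Rps3 near the mRNA entry at 0.13, Rpl23a at the tunnel exit at 0.14 and the very small protein gene Rpl41 at 0.18, with adjusted p of 0.758, 0.525, 0.512 and 0.413. These estimates varied with single pools: they were highest without Col6a1-/- replicate 1, at 0.49 for Rplp2, 0.24 for Rpsa, 0.22 for Rps3, 0.25 for Rpl23a and 0.26 for Rpl41. The lowest values were 0.18 for Rplp2 without Col6a1-/- replicate 2, 0.060 for Rps3 and 0.061 for Rpl23a without Col6a1-/- replicate 3, and 0.045 for Rpsa and 0.077 for Rpl41 without wildtype replicate 3.

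A few ribosomal proteins are made as fusions or fall outside the symbol pattern. Rps27a, which is translated as a fusion with ubiquitin, had a log2 fold change of 0.21 with an adjusted p of 0.27. Fau, which encodes a ubiquitin-like fusion with Rps30, had 4859, 4352 and 3767 normalized counts in wildtype and 3908, 5244 and 5295 in Col6a1-/- pools (0.15, adjusted p 0.553). Rack1, the signalling scaffold on the small subunit, had 0.06 with an adjusted p of 0.764.

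Levels differed widely between members. Per kilobase of the principal annotated transcript, mean normalized counts ran from 12.4 to 27411, with a median of 7983, and 77 of 84 members had a mean of at least 1000 before the division by length. Rplp1, Rps27, Rps15 and Rps29 had the highest levels per kilobase, at 27411, 25874, 23310 and 21698. The 4 highest by count alone were Rpl4 at 22008, Rps4x at 16930, Rplp0 at 15695 and Rpl7 at 14165. The 4 lowest by count were Rpl24 at 12.3, Rpl6l at 12.6, Rpl3l at 17.1 and Rps3a2 at 23.0. Rpl6l and Rps3a2 are annotated as processed pseudogenes, and Rps4l as a transcribed one.

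Rpl24 encodes a core protein of the large subunit, yet it was counted near the minimum. It had 12.5, 5.49 and 5.81 normalized counts in wildtype and 23.3, 12.0 and 15.0 in the Col6a1-/- pools, which gave the largest log2 fold change of the family at 1.03 (SE 0.42, limma adjusted p 0.208), with pools that overlapped. In the annotation, 47.0% of its exon bases are also exon of the predicted gene Gm28037, which is listed at 0 in every library. Rpl13a, also a core protein, was counted at 412 to 534, and 35.4% of its exon bases are shared with other annotated genes. Near-identical copies were common: 77 of 84 members matched at least 1 other gene over 200 bases or more at 95% identity or above, with a median of 5 copies and 61 for Rpl21, so the levels of these genes are uncertain. The number of copies had a Spearman's rho of 0.05 with the estimate across members.

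Close to the minimum of 10, Rpl6l was inside, at 13.5, 12.1 and 11.6 in wildtype and 13.6, 8.75 and 16.0 in Col6a1-/- pools. Outside were Rps3a3 at 3.12 to 9.88, Rpl39l at 1.94 to 6.00, Rpl10l at 0 to 0.968 and Rps12l1, listed at 0. Rpl10l and Rpl39l are known as paralogs of the male germ line.

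Paralogs were compared with their partners as a percentage within each library, which shows unequal change between both genes of a pair. Rpl22l1 was at 12.3%, 11.3% and 17.6% of Rpl22 in the wildtype pools and at 17.7%, 17.9% and 18.8% in the Col6a1-/- pools. Wildtype replicate 3 thus lay beside the Col6a1-/- pools and apart from the other wildtype pools, as it did in the male share. The same library stood out for Rps27l, a p53-induced paralog of Rps27, at 12.2%, 11.5% and 15.0% in wildtype pools and 14.03%, 13.4% and 14.5% in Col6a1-/- pools, where the genotypes overlapped. The part of sex in these ratios was not tested.

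Rpl7l1, a nucleolar relative of Rpl7 that acts in ribosome assembly, was lower against its partner. Its ratio to Rpl7 was 15.9%, 15.5% and 15.2% in wildtype pools and 13.99%, 12.7% and 13.1% in Col6a1-/- pools, with no overlap, and Rpl7 had an estimate of 0.16 and Rpl7l1 one of -0.07 (adjusted p of 0.428 and 0.705). Rpl36al, a paralog outside the symbol pattern, was also lower relative to Rpl36a, 25.1%, 27.9% and 25.7% against 23.4%, 21.9% and 21.6%. Rps4l was at 5.60%, 5.08% and 5.90% of Rps4x in wildtype pools and 5.05%, 4.32% and 5.08% in Col6a1-/- lungs, with the highest Col6a1-/- pool just under the lowest wildtype pool. Rpl3l, the striated muscle form of Rpl3, was at 0.104% to 0.160% of Rpl3 in wildtype and 0.119% to 0.161% in Col6a1-/- pools and did not differ beyond that spread. Of 15 cardiac muscle markers tested, 13 had higher estimates and none was called, and their summed level was 20277 to 26793 normalized counts in wildtype and 27570 to 29809 in Col6a1-/- pools. Of 10 skeletal muscle markers 4 passed the minimum, all with higher estimates and none called. Their part in the Rpl3l values was not tested.

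**Figure D3:**
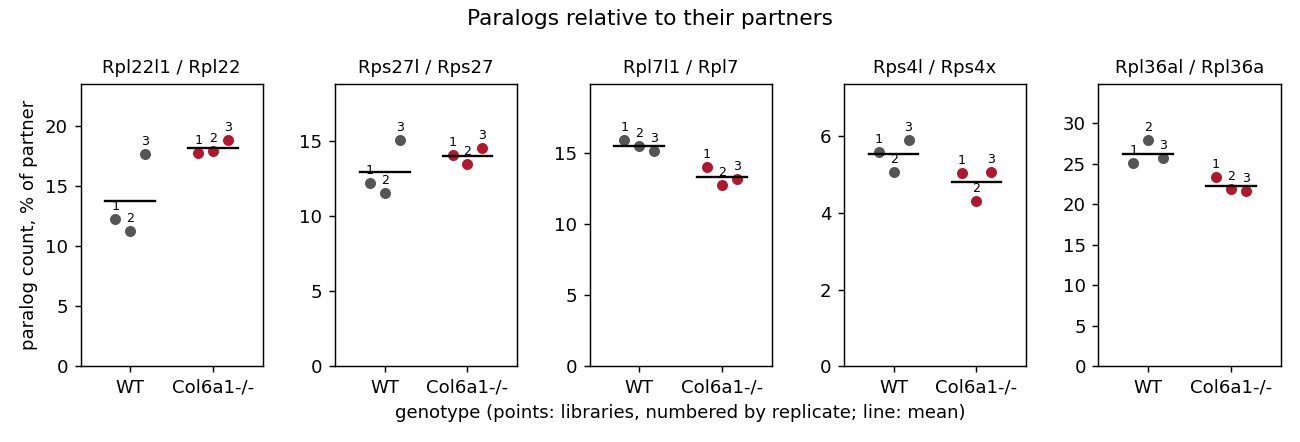
Points are libraries, numbered by replicate, and lines are means over 3 pools of the normalized count of a paralog as a percentage of its partner, with the vertical axes starting at 0. Rpl22l1 in wildtype replicate 3 (17.6%) sits with the Col6a1-/- pools (17.7% to 18.8%), while Rpl7l1 and Rpl36al lie lower in all Col6a1-/- pools than in wildtype pools.

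Of 13 further transcripts with a TOP motif, none was called by limma, 12 had positive estimates and the median was 0.26. Tpt1, the translationally controlled tumour protein, had 19387, 18536 and 24327 normalized counts in wildtype and 26747, 31093 and 34597 in the Col6a1-/- pools. Its log2 fold change was 0.57 with an adjusted p of 0.0942, and its pools did not overlap. Wildtype replicate 3, with a male share of 51.5%, was the wildtype pool nearest to the Col6a1-/- pools. The part of sex in these values was not tested. Pabpc1, the poly(A)-binding protein, was at -0.01 with an adjusted p of 0.944. The elongation factors had a median of 0.08 with 11 of 13 positive and none called. Eif5a2 had 238, 291 and 405 normalized counts in wildtype and 425, 481 and 414 in the Col6a1-/- pools (0.53, adjusted p 0.150). Wildtype replicate 3 was again the wildtype pool nearest to the Col6a1-/- pools. Eef2, the translocase, was at -0.10 (adjusted p 0.678).

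Initiation factors were divided, with 18 positive and 20 negative estimates, a median of -0.03 and none called. Eif3e, a subunit of the Eif3 scaffold, was at 2247, 2361 and 3027 in wildtype and 3113, 3365 and 3836 in Col6a1-/- pools (0.44, adjusted p 0.118). Here too wildtype replicate 3 was the wildtype pool nearest to the Col6a1-/- pools, and the part of sex was not tested. Eif4ebp2, a repressor of cap-dependent initiation, was at 2581, 2451 and 2358 against 2010.2, 1702 and 1432 (-0.54, adjusted p 0.0939). Genes of ribosome assembly and ribosomal RNA synthesis had negative estimates for 28 of 41 and a median of -0.07, again with none called. Mdn1, the large AAA ATPase that strips assembly factors from the pre-60S particle, stood at 1466, 1557 and 1434 in wildtype and 1159, 1031 and 864 in Col6a1-/- pools, a log2 fold change of -0.55 with an adjusted p of 0.0833. Nmd3, the export adaptor of the large subunit, was at 0.38 with an adjusted p of 0.192.

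The mTOR, S6 kinase and Myc genes had a median of -0.12 with 5 of 13 positive and none called. Myc, which drives transcription of ribosomal genes, was at 347, 339 and 329 in wildtype and 259, 256 and 231 in Col6a1-/- pools, without overlap (-0.44, adjusted p 0.103), and Rheb, the activator of mTOR, was at 0.22 (adjusted p 0.245). These lists differ in transcript length, with medians of 1538 bases for the TOP transcripts, 2537 for elongation factors, 2019 for initiation factors, 2738 for assembly and 4586 for the mTOR and Myc list. With the length and GC trend removed, their medians were 0.15, 0.07, -0.03, -0.08 and -0.03 in that order, beside 0.11 for the ribosomal proteins.

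**Figure D4:**
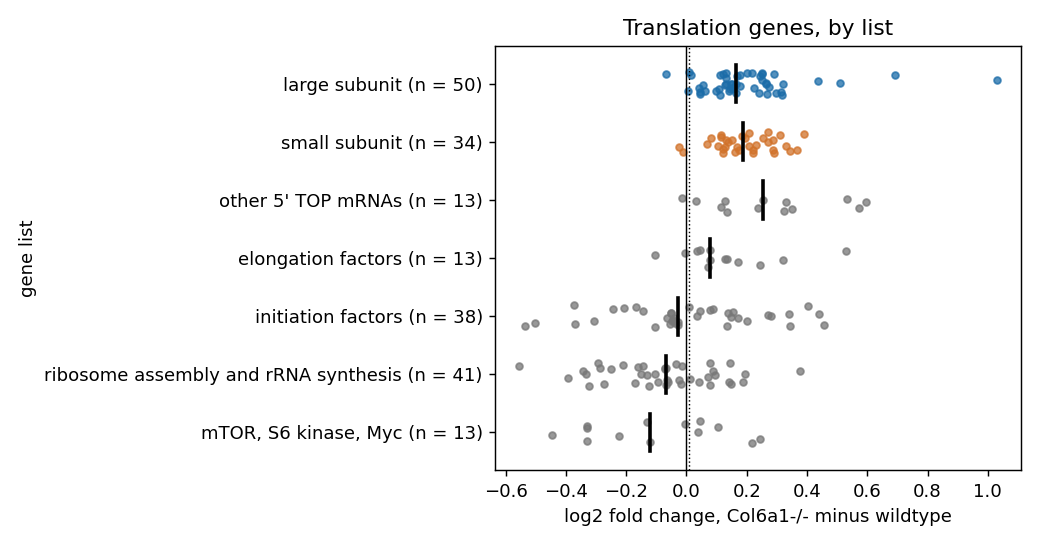
Points are genes, placed by log2 fold change (Col6a1-/- minus wildtype), in 7 lists, with a black bar at each list's median, a solid line at 0 and a dotted line at the median of all tested genes (0.01). Ribosomal proteins and other TOP transcripts lie mostly above 0 (medians 0.16, 0.19 and 0.26), whereas assembly factors and the mTOR and Myc genes lie mostly below (-0.07 and -0.12).

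Markers of other cell types were summed in each library, and their part in the values of the ribosomal proteins was not tested. Red cell markers had higher estimates for 10 of 10, with a summed level of 45029 to 51159 normalized counts in wildtype and 66007 to 106958 in Col6a1-/- pools. Fat tissue markers had higher estimates for 10 of 13, with a median log2 fold change of 1.19, while their summed level was 78596 to 92355 in wildtype and 63748 to 79671 in Col6a1-/- pools. Proliferating cell markers had lower estimates for 9 of 10. Their mean deviation on the log2 scale was -0.12, -0.11 and 0.60 in wildtype pools and 0.03, -0.45 and 0.05 in Col6a1-/- pools. They were highest in wildtype replicate 3, where ribosomal proteins were lowest, and next highest in Col6a1-/- replicate 3, where ribosomal proteins were highest. B and plasma cell markers had lower estimates for 9 of 11, and 1 of the 11, Igha, was called higher. No defining marker of these 4 lists was at 0 in every library. The share of mitochondrially encoded transcripts was 1.18%, 1.09% and 1.99% in wildtype pools and 2.29%, 1.88% and 2.17% in the Col6a1-/- pools, an order that differs from that of the ribosomal proteins, since Col6a1-/- replicate 1 and wildtype replicate 3 were high.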

How the data were processed

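The authors' deposited table gives, as a signal, gene counts divided by 1 size factor per library. Per the submitters' processing notes, the tools and build, listed with no role or order, were DESeq2 1.16.1, R 3.4.1, featureCounts of Subread 1.5.0p3, STAR 2.5.2b, Trimmomatic 0.36 and build GRCm38.p5. No source used here gives annotation release or strand setting. A second table holds the authors' comparison: log2 fold changes, p-values and 2 score columns (mean and test statistic), as deposited by the authors. All values became whole reads (within 1e-06) after multiplication by the size factor. Genes reaching 10 in 3 or more libraries were tested with limma 3.58.1 (trend) on log2(value + 1), which understates changes of low genes; edgeR 4.0.16 and DESeq2 1.42.0 were run on the recovered reads in R 4.3.3. Fits were tested on simulated data. Gene positions, lengths and shared exons came from GENCODE M21, copies from blastn 2.17.0. Alternatives covered pseudocount, filter, scaling, tool, single libraries, transcript length and GC, and sex of the pools; the principal-transcript trend and the mixed-sex pools (wildtype replicate 3 and Col6a1-/- replicates 1 and 3) were chosen after seeing the data. Named are the members called, the 6 highest and 6 lowest estimates, the 4 highest and 4 lowest levels, paralog pairs, stalk, landmark and fusion proteins, members near the minimum, and the smallest p per list and direction; the 5 called in the authors' table are among them. Members and lists were chosen with earlier results of these data known. The header of wildtype replicate 2 carries an added word whose meaning is not given.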

Additional observations from a re-analysis of the deposited data

How the results depend on the processing

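Over 19 alternatives, 17 of them planned, DESeq2 on recovered reads called 5 members, and 5.06% of all genes with an adjusted p. Leaving out a library called 0 to 2 members. The 2 came without wildtype replicate 3, where 8.26% of all tested genes were called. The other alternatives called 0 members. The median was 0.34 for all members, 0.34 for the large and 0.34 for the small subunit with the male share as a covariate. Of 604 values of 32 named members, 558 kept direction and call. Part of this count was fixed in advance. Changing the filter or adding the replicate block cannot move an estimate, and no member was called in the main fit. Signs turned with median centring for Rpl27 (-0.031), Rpl28 (-0.024) and Rpl6l (-0.032), and with quantile normalization for Rpl6l (-0.086) and Rps28 (0.025). With the length and GC trend removed they turned for Rpl10 (-0.0079), Rpl27 (-0.033), Rpl28 (-0.024), Rpl6l (-0.035), Rpl7 (-0.0010) and Rps27a (-0.0027), and with that of the principal transcript for Rpl27 (-0.031), Rpl28 (-0.058), Rpl6l (-0.035), Rps28 (0.026) and Rps6 (-0.011). The male share turned Rpl7l1 (0.043), Rps28 (0.23) and Rps4l (0.056), and the mixed-sex pools Rps28 (0.20). Without 1 library, values ran from -0.15 to 0.11 for Rps28, -0.16 to 0.24 for Rpl6l, -0.11 to 0.14 for Rpl27, -0.090 to 0.10 for Rpl28, -0.029 to 0.13 for Rplp0, -0.021 to 0.14 for Rps6, -0.13 to 0.00016 for Rpl7l1 and -0.12 to 0.039 for Rps4l. The cause was not tested.

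With the replicate block 0 members and 0.0415% of all tested genes were called. Each block held a library of each genotype, so it could not change the estimates, and the median stayed at 0.17. Over all tested genes, deviations of same-numbered libraries from their genotype means correlated at -0.14, 0.11 and -0.0059. Whether same-numbered libraries were handled together is not given in the labels and was not tested. With 3 pools per genotype, differences well above the median SE of 0.115 also went uncalled. Rpl22l1 at 0.69 (SE 0.15) and Rpl35a at 0.51 (SE 0.12) had limma adjusted p of 0.0869 and 0.0942. The absence of called members thus does not show that the members were unchanged.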
